A study of Mus musculus with 20 samples.

Results

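Fibroblast growth factors (FGFs), their receptors, the inhibitors that FGF signalling switches on and the ETS-factor gene Etv4 were followed in cultured mouse germline stem cells (GSCs) that keep or lack Kmt2b, a histone H3 lysine 4 methyltransferase. Members were taken by symbol, as every gene named Fgf, Fgfr, Spry or Spred with a number, plus Fgfrl1, Dusp6 and Etv4. The rule found 35 genes, among 25965 in the chromatin table and 25067 in the RNA table. They are 18 secreted ligands, 4 intracellular FGFs, 5 receptors, 7 feedback genes and Etv4. Spry3 is not analysed here.

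The control cells were Kmt2b F/F with Rosa26-CreERT2, a Cre recombinase made from a ubiquitously active locus and switched on by 4-hydroxytamoxifen (4-OHT), and were mock-treated with ethanol. The knockout cells, Kmt2b FC/FC, were made by adding 1 μM 4-OHT and were harvested 6 days later. Both groups carried Rosa26-CreERT2, only the knockout cells received 4-OHT, and so loss of Kmt2b and exposure to the drug cannot be told apart. All cells grew in GS media on fibroblast feeders, which may also contribute chromatin and RNA. Duplicate cell lines gave 2 control and 2 knockout libraries for each of H3K4me3, H3K27me3, RNA and unprecipitated (input) DNA. The p-values here rest only on spread between these lines, pooled over features of similar mean signal, not on each gene's own lines alone. For H3K9me3 there are 2 libraries, from F/F cells alone, and their 2 inputs come from the same kit (ThruPLEX, against NEBNext elsewhere); the treatment and day of those cells are not given.

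FGFs bind receptor tyrosine kinases together with heparan sulphate or Klotho co-receptors on the cell surface, and the receptors signal mainly through RAS and the MAP kinases. Sprouty (Spry), Spred and Dusp6 proteins dampen this cascade and are commonly switched on by it, as are the ETS factors Etv4 and Etv5. In the testis, FGF2 and GDNF support the self-renewal of spermatogonial stem cells, and FGF2 is a usual supplement of GSC cultures. H3K4me3 marks active and poised promoters, H3K27me3 is the Polycomb mark of repressed ones, and promoters with both are called bivalent.

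The promoters below are shown because the results turn on them or contrast with them. Fgf4, Fgf5 and Fgfr4 are the members called lower in H3K4me3, Spry2 and Dusp6 are among those whose RNA rose, and Fgf23 carried neither mark. Each is the 250 bases before the RefSeq start of transcription (GRCm38.p6, which is mm10), written 5′ to 3′ on the gene's strand, and capitals mark CpG dinucleotides.
Fgf4 (chr7:144861136-144861385, plus strand): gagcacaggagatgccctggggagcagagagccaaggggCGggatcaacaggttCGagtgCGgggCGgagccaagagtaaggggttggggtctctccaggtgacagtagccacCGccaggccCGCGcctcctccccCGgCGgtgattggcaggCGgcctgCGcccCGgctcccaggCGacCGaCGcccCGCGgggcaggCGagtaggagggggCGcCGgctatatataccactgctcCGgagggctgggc
Fgf5 (chr5:98253934-98254183, plus strand): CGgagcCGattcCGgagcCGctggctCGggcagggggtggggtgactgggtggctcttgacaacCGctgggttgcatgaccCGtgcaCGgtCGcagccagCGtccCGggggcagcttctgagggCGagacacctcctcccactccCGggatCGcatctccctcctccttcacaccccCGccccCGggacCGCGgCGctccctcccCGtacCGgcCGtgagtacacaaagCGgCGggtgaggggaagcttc
Fgfr4 (chr13:55152568-55152817, plus strand): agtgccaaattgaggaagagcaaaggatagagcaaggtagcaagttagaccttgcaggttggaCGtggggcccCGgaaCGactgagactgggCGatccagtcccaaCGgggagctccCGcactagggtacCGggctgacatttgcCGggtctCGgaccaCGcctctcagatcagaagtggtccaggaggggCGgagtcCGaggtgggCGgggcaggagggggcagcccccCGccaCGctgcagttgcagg
Spry2 (chr14:105896820-105897069, minus strand): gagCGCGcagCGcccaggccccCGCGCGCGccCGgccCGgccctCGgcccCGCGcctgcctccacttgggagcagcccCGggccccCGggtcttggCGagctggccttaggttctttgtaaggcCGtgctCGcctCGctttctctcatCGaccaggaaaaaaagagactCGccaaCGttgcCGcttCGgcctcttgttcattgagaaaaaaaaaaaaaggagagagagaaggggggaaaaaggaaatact
Dusp6 (chr10:99262981-99263230, plus strand): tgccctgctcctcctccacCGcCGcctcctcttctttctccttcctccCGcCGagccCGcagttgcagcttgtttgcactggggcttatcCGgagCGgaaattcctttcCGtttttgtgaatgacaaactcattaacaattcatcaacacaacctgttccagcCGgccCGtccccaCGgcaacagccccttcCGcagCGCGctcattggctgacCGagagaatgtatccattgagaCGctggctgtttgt
Fgf23 (chr6:127072652-127072901, plus strand): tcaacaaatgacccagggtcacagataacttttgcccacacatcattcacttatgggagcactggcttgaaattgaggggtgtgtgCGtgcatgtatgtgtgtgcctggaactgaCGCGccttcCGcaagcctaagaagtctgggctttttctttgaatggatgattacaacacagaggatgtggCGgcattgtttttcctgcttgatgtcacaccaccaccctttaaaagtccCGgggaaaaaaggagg
The stretch shown holds 21 CpG dinucleotides at Fgf4, 24 at Fgf5, 15 at Fgfr4, 23 at Spry2, 16 at Dusp6 and 6 at Fgf23. For Fgfr4 the start used in the deposited tables lies 178 bases upstream of the RefSeq start.

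Over windows of 300 bases around the start, the 20 members with a RefSeq promoter within 1 kb of the start in the tables had a median of 21 CpGs (range 5 to 47), against 7 (0 to 67) over all 32851 promoters in that reference. Sorted by their marks in control cells, as described next, the median was 27 CpGs in the 12 members with H3K4me3 alone (17 to 47), 21 in the 4 bivalent ones (5 to 29) and 9 in the 3 with neither mark (6 to 11). The ETS-type motif CCGGAA, searched on both strands, was present in 5 of the 20 members (25.0%) and in 14.9% of all promoters.

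The windows do not all report on the promoter a reader would look for. The start of the row lay within 100 bases of the RefSeq 5′ end for 20 of the 35 members, and over 1000 bases from every RefSeq start in the reference for Fgf2, Fgf10, Fgf20, Fgfr1 and Fgfr2. The Fgf2 window lies 35 bases from the start of Bbs12, and the Fgf2 RNA row encloses that gene. Another gene also starts 266 bases from the start of Spry4 (9630014M24Rik), 379 from Spred3 (Ggn) and 873 from Fgf20 (Efha2). The marks of those windows may belong to either gene. The Fgfr2 RNA row is 2961.9 kb long and encloses 19 other genes on its strand that have no RNA row of their own, and its chromatin window lies 1004 bases from the start of Ctbp2. The Fgf10 and Fgf20 RNA rows reach 44908 and 21378 bases 5′ of the RefSeq gene and overlap Gm16263 and Efha2 on the other strand. Values for Fgf2, Fgf10, Fgf20 and Fgfr2 are therefore values of those rows, not levels of those genes.

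H3K4me3 libraries held 3830045 to 18035121 mapped reads, H3K27me3 libraries 10538530 to 14810131, and the inputs of both 10967791 to 14405262. H3K9me3 and ThruPLEX input libraries held 41099189 to 63537157, and RNA libraries 38458003 to 45771857. The H3K4me3 library of knockout replicate 1 stood apart, with the lowest depth and the lowest share of reads in gene windows (20.7%), and 1 read there is worth 0.261 RPM (the reads-per-million scaling to mapped reads). Among the 29 members tested for H3K4me3, 28 were lower in knockout replicate 1 than in knockout replicate 2, and 27 were likewise lower in control replicate 1 than in control replicate 2. In RNA, the knockout replicates differed from each other by 23.7 chi-square units per degree of freedom over genes, against 2.24 for the control pair. Kmt2b RNA, listed under its older symbol Wbp7, was at 142 and 150 RPM in control and 131 and 185 RPM in knockout cells; the part deleted by Cre is not given in the sources used here, so a count over the whole gene does not check the genotype labels.

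Germ cell identity was clear in the RNA and feeder RNA was present. The 14 germ cell markers summed to 2520 and 2471 RPM in control and 2453 and 2792 RPM in knockout cells, and none was under 1 RPM in all libraries. The 22 feeder fibroblast markers summed to 598 and 637 RPM in control and 667 and 835 RPM in knockout cells, and of these Col1a1, Pdgfra and Twist1 passed limma's test as higher. The 9 Sertoli and Leydig markers measured summed to between 20.4 and 25.6 RPM, with Hsd3b1 listed at 0 and Amh and Cyp11a1 under 1 RPM. The 7 blood and macrophage markers summed to between 6.53 and 7.45 RPM, with Ptprc, Emr1 and Csf1r under 1 RPM. In bulk RNA, fewer cells of a type and less RNA per cell cannot be told apart.

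The marks in control cells are described first. Windows were classed by their log2 ratio over the same-numbered input, (RPM + 0.5) over (input RPM + 0.5), with H3K4me3 present at 1.5 or more and H3K27me3 at 1 or more in both libraries. Bivalent windows made up 9 of the 35 members (25.7%), against 7.68% of all windows, and all 9 were FGF genes themselves. They were Fgf3, Fgf4, Fgf5, Fgf8, Fgf9, Fgf15 and Fgf17, which encode secreted ligands, and Fgf11 and Fgf14, which encode intracellular FGFs that bind sodium channels rather than receptors. The 7 feedback genes, Etv4, Fgfr2, Fgfr3, Fgfr4 and Fgfrl1 carried H3K4me3 alone, as did Fgf2, Fgf12, Fgf13, Fgf16, Fgf18, Fgf20 and Fgf22. Fgf6, a muscle-associated ligand, was classed as H3K27me3 alone, and Fgf1, Fgf7, Fgf10, Fgf21, Fgf23 and Fgfr1 carried neither. The H3K4me3 ratios of Fgf6 lay on either side of the threshold, at 1.346 in control replicate 1 and 1.608 in control replicate 2. The windows of Fgfr1, Fgf10, Fgf2, Fgf20 and Fgfr2 lie 5105, 44908, 35958, 21378 and 2856542 bases from the RefSeq start of their gene, so their class does not describe those promoters.

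Bivalent members lie next to each other on chromosome 7, where Fgf3 and Fgf4 are separated by 16.95 kb and Fgf4 and Fgf15 by 31.3 kb. The number of bivalent members depended on the library, since control replicate 1 alone gave 14 bivalent members and control replicate 2 alone gave 10. The additional 5 with control replicate 1 alone were Fgf12, Fgf13, Fgf16, Fgf18 and Fgfr4, at which control replicate 1 lay above the H3K27me3 threshold and control replicate 2 below it. Their ratios in control replicate 2 ran from -0.69 at Fgf18 to 0.96 at Fgfr4.

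**Figure D1:**
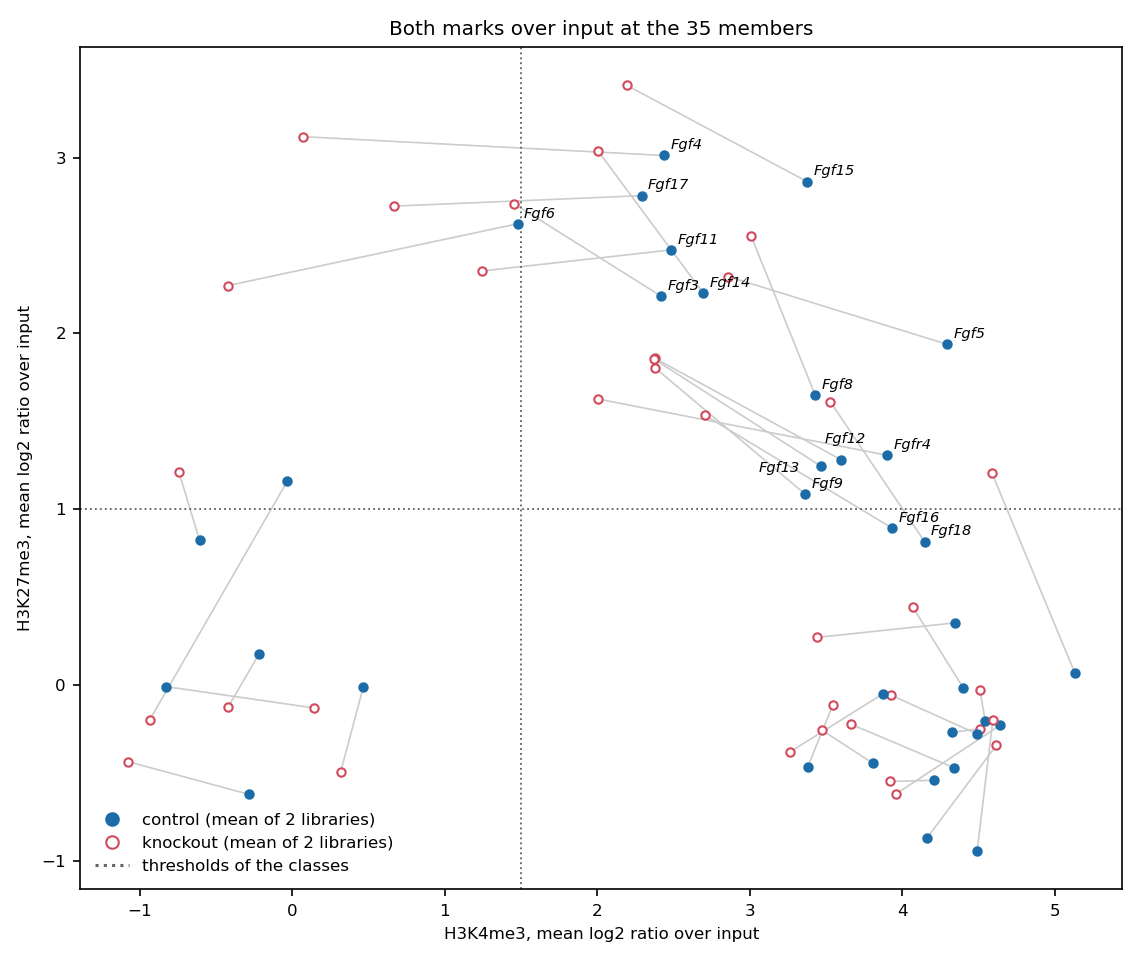
Mean log2 ratio over input of H3K4me3 (horizontal axis) and H3K27me3 (vertical axis) at the 35 members, with filled points for control, open points for knockout and a line joining each gene's values; dotted lines are the thresholds of 1.5 and 1, which each of the 2 libraries had to reach. The bivalent members lie in the upper right in control cells, and Fgf4, Fgf17, Fgf3 and Fgf11 cross to the left of the H3K4me3 threshold in knockout cells.

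Loss of H3K4me3 in knockout cells was called at 3 members, the ligands Fgf4 and Fgf5 and the receptor gene Fgfr4. They made up 10.3% of the 29 members tested (mean of at least 1 RPM), against 9.9% of all 15624 windows tested that were called lower (limma, adjusted p under 0.05), so the share is close to the background. No member was called higher, against 0.0512% of all windows. At an unadjusted p under 0.05, 14 members were lower and 0 higher, against 24.7% and 0.314% of all windows. The median change of the 29 members was -0.60 on the log2 scale, against -0.26 over all windows tested. With the replicate number as a block, 14 members and 4037 of all windows were called lower. The change was below 0 for 25 of the 29, and for 22 of 29 after median centring or quantile normalization, which raised the median window by 0.29 and 0.30. The calls over all windows were 1546 lower and 8 higher as deposited, 1430 and 642 with median centring, and 595 and 414 with quantile normalization. Among members, median centring called Fgf4, Fgf5, Fgf12 and Fgf15 lower. Quantile normalization called Fgf5 and the Fgfr2 window lower and Fgf22 higher. Without a filter on low values, Fgf4, Fgf6 and Fgfr4 were called lower and Fgf1 higher, against 1010 lower and 55 higher of 25965 windows. Fgf1 had 0 and 1 reads in control and 2 and 11 in knockout cells.

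Among the secreted ligands, Fgf4 had the largest change of the 29 members tested. Fgf4, a ligand of early embryos and of pluripotent cells, had 4.83 and 6.38 RPM of H3K4me3 in control cells and 0.261 and 1.57 RPM in knockout cells. Both knockout values were below both control values, although the lower one rests on 1 read. The log2 change was -3.12 (SE 0.71, limma adjusted p = 0.0037). Without knockout replicate 1 the change was -1.82 (limma adjusted p = 0.0165), in a fit where the knockout is a single sample assumed to vary like the controls. With quantile normalization it was -1.47 and missed the threshold (limma adjusted p = 0.0733).

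Fgf5, a regulator of the hair growth cycle that is also expressed in the early epiblast, had 18.0 and 22.1 RPM in control and 6.53 and 13.5 RPM in knockout cells. Control and knockout did not overlap, and the log2 change was -1.09 (SE 0.36, limma adjusted p = 0.0341). Fgf5 lost its call without knockout replicate 1, where the change was -0.56 (limma adjusted p = 0.149), and also without a filter on low values and over input (limma adjusted p = 0.0559 and 0.0666). With control replicate 1 or 2 left out, limma called 0 of 29 members and 0 of all 15624 windows lower, while the log2 changes were -3.32 and -2.91 at Fgf4, -1.24 and -0.94 at Fgf5, and -2.13 and -1.64 at Fgfr4. Without knockout replicate 2, 22 members were called lower, and so were 6889 of all 15624 windows. Each of these fits leaves a group with 1 sample, which is assumed to vary like the other group.

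Fgf6 had 1.93 and 2.72 RPM in control and 0 and 0.965 RPM in knockout cells. No read fell in the Fgf6 window in knockout replicate 1, which allows up to 0.783 RPM there (3 counts, counting error only), and the table stores such a value as 0.9 of a read. Its log2 change of -2.27 (SE 0.81) missed the threshold (limma adjusted p = 0.0505). Fgf17, a relative of Fgf8 that acts in the developing brain, had 3.96 and 5.10 RPM in control and 0.783 and 2.23 RPM in knockout cells, also without overlap. Its log2 change was -1.76 (SE 0.67, limma adjusted p = 0.0663).

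Fgf8, a ligand of the gastrulating embryo that acts in limb and brain patterning, had 10.9 and 15.2 RPM in control and 7.31 and 9.11 RPM in knockout cells. Both knockout values were the lower, but the log2 change of -0.66 (SE 0.41) did not pass limma's test (adjusted p = 0.331). The row of Fgf2 had 20.7 and 21.2 RPM in control and 23.0 and 21.8 RPM in knockout cells, with a log2 change of 0.10 (limma adjusted p = 0.905). It reports on a window beside Bbs12. Over the 13 secreted ligands tested, 10 changes were negative, the median was -1.09 and the range ran from -3.12 to 0.10.

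None of the 4 intracellular FGFs was called. Their log2 changes were all negative, between -1.53 and -1.21, with a median of -1.32. Fgf11 had 5.79 and 6.88 RPM in control and 0.783 and 6.09 RPM in knockout cells. Its knockout replicate 2 lay within the control range, and its log2 change of -1.53 (SE 0.59, limma adjusted p = 0.0749) rested on knockout replicate 1, since the change was -0.05 without that library.

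Of the receptors, Fgfr4, which binds FGF15 and FGF19 with beta-Klotho in liver, had 12.5 and 17.5 RPM in control and 1.83 and 8.75 RPM in knockout cells. Both knockout values lay below the controls, and the log2 change was -1.88 (SE 0.47, limma adjusted p = 0.0063). Without knockout replicate 1 the change shrank to -0.75 (limma adjusted p = 0.118), and the call was also lost with median centring at -1.59 (limma adjusted p = 0.0536) and with quantile normalization at -1.08 (limma adjusted p = 0.0643). Fgfr3, a receptor known for its role in bone growth, had 17.2 and 18.6 RPM in control and 9.40 and 15.1 RPM in knockout cells. Its log2 change of -0.59 (SE 0.35) was not called (limma adjusted p = 0.292). The Fgfr2 window, near the start of Ctbp2, had 25.5 and 31.2 RPM in control and 14.4 and 25.0 RPM in knockout cells, with a log2 change of -0.57 (SE 0.26, limma adjusted p = 0.133). The Fgfr1 window held at most 0.333 RPM in any library and was not tested.

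No feedback gene was called in H3K4me3. The 7 log2 changes were all negative, with a median of -0.32 and a range from -0.60 to -0.23. Spry4, a Sprouty inhibitor of receptor tyrosine kinase signalling, had 19.8 and 24.2 RPM in control and 13.8 and 21.2 RPM in knockout cells, and its groups overlapped. Dusp6, the phosphatase that acts on ERK, had 14.8 and 17.2 RPM in control and 9.14 and 14.4 RPM in knockout cells. Spry2, another Sprouty inhibitor, had 18.9 and 19.3 RPM in control and 14.6 and 18.2 RPM in knockout cells. The log2 changes were -0.35 at Spry4, -0.48 at Dusp6 and -0.23 at Spry2, and that at Spry2 turned to 0.06 with median centring and 0.0073 with quantile normalization. Etv4 had 12.0 and 17.2 RPM in control and 9.40 and 11.2 RPM in knockout cells, with a log2 change of -0.49 (limma adjusted p = 0.481) that turned to 0.05 with quantile normalization.

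The change differed by class in these members as it did over all windows, and the control libraries that set the classes also enter the comparison. The 9 bivalent members had a median log2 change of -1.28, against -1.30 over all bivalent windows tested, and the 19 with H3K4me3 alone had -0.46, against -0.16. Of the 9 bivalent members 2 were called lower (Fgf4 and Fgf5), against 43.7% of all bivalent windows. Of the 19 with H3K4me3 alone 1 was called lower (Fgfr4), against 4.74%. Fgf4 and Fgf6 passed the filter on the mean only through their control libraries. The groups did not overlap at 22 of the 29 members, and 21 of these were lower in knockout cells, against 42.8% of all windows. No member was called in the input DNA, whether by limma on the log2 values (against 0.0% of all windows called in either direction, and 0 of 29 at an unadjusted p under 0.05, against 2.53% lower and 2.21% higher) or by limma voom (0).

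**Figure D2:**
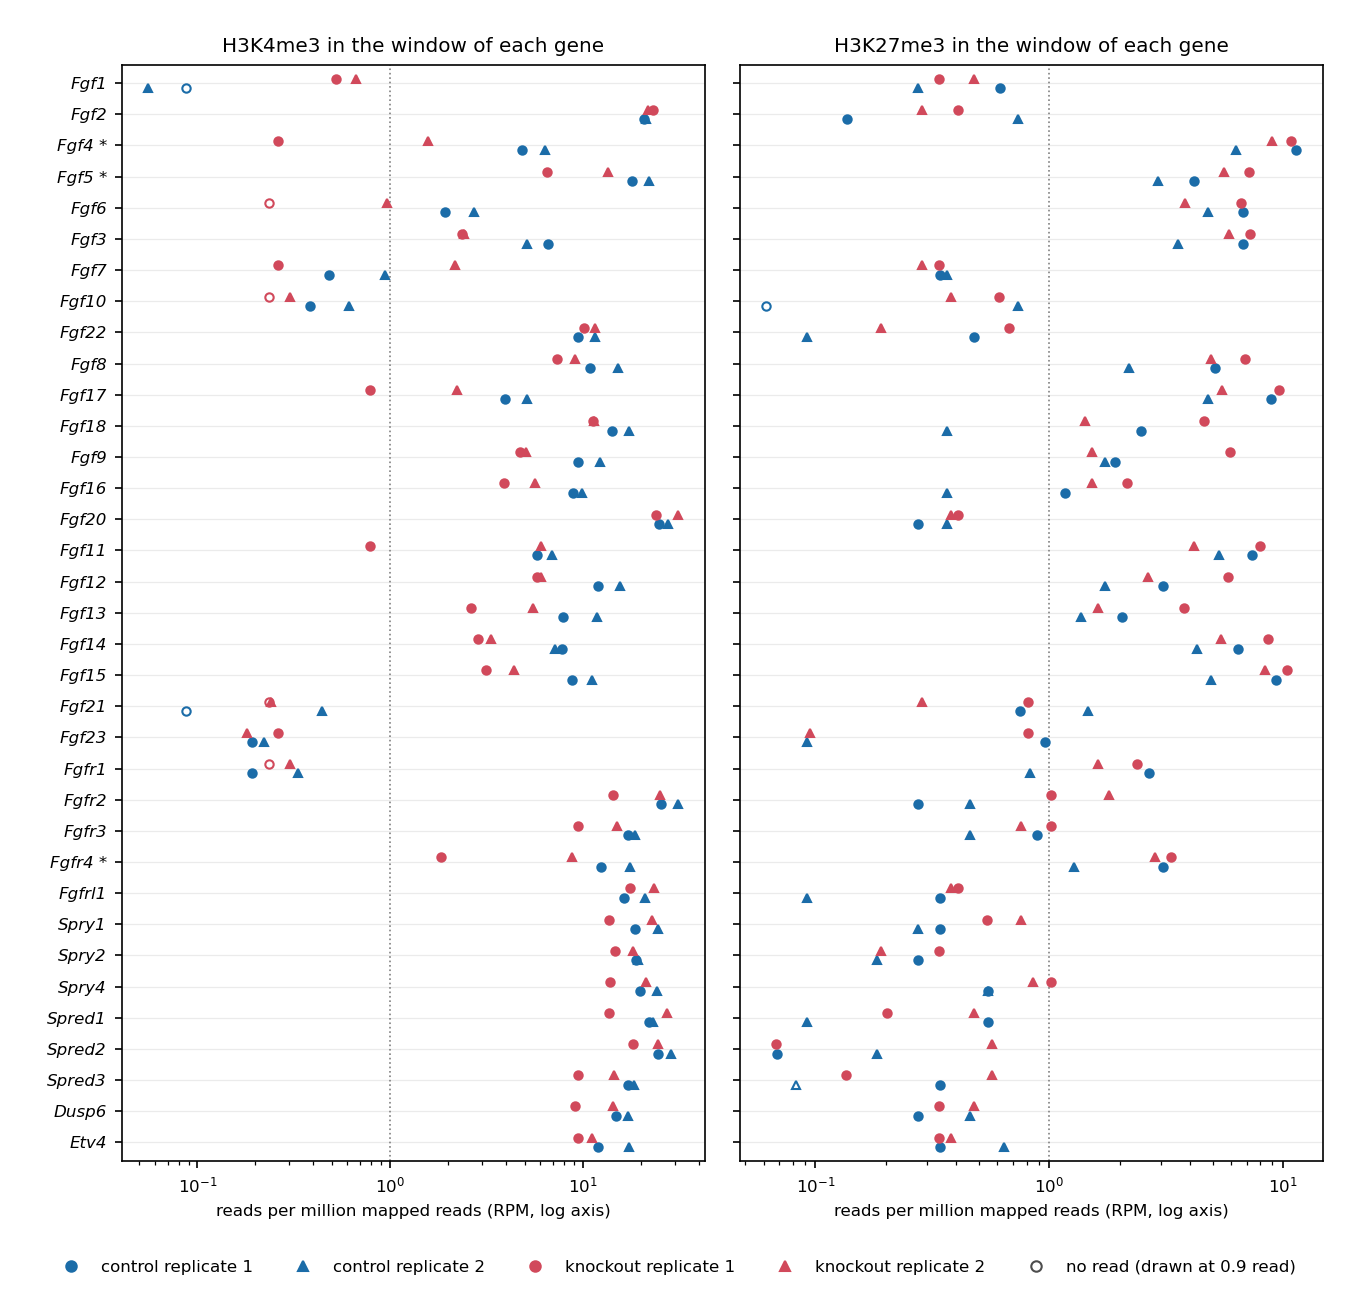
H3K4me3 (left) and H3K27me3 (right) in RPM on a log axis for every member in every library, with circles for replicate 1, triangles for replicate 2 and open symbols for libraries with no read; the dotted line is 1 RPM and an asterisk marks members called lower in H3K4me3. Among the windows tested for H3K4me3, knockout replicate 1 lies left of 1 RPM at Fgf4, Fgf6, Fgf11 and Fgf17.

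H3K27me3 was called at no member on the deposited values without a replicate block. Of the 35, 16 had a mean of at least 1 RPM and were tested, and limma called 0, against 0.791% of all 4807 windows called higher and 0.0% called lower. At an unadjusted p under 0.05, 2 members were higher, against 12.0% of all windows. limma voom on the recovered reads also called 0. The median change was 0.51, against 0.45 over all windows tested, so that the members moved with the table as a whole, and after median centring, which lowers every change by 0.58 at the median window, it was -0.07 and limma called 2 members lower, Fgf6 and Fgf11. Over all windows, the calls went with that centring from 0 lower and 38 higher to 202 lower and 81 higher. Whether a replicate number marks the same cell line in both groups is not given in the sources used here. With the number as a block, limma called 5 members higher (Fgf5, Fgf8, Fgf12, Fgf16 and Fgf18), with adjusted p from 0.0061 at Fgf5 to 0.0452 at Fgf12, and 1206 of all 4807 windows higher. The groups did not overlap at 2 members, Fgf5 and Fgf16, both higher in knockout cells, against 36.9% of all windows higher and 3.14% lower.

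The largest changes were at ligands with little of the mark in control cells. Fgf16, a ligand expressed in heart, had 1.16 and 0.366 RPM in control and 2.16 and 1.52 RPM in knockout cells, with a log2 change of 1.47 (SE 0.64, limma adjusted p = 0.302). Fgf18, a ligand of bone and lung development, had 2.46 and 0.366 RPM in control and 4.59 and 1.42 RPM in knockout cells, with a log2 change of 1.43 (SE 0.56, limma adjusted p = 0.236). Fgf16 passed the filter only through its knockout libraries. The lowest values of both genes rest on 4 reads in control replicate 2. Without control replicate 1, when that low library stands alone for the controls, the changes were 2.31 at Fgf16 and 2.80 at Fgf18.

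Fgf5 had 4.17 and 2.93 RPM of H3K27me3 in control and 7.16 and 5.60 RPM in knockout cells, with a log2 change of 0.86 (SE 0.60, limma adjusted p = 0.614). Fgf8 had 5.13 and 2.20 RPM in control and 6.89 and 4.93 RPM in knockout cells, with a log2 change of 0.80 (SE 0.60, limma adjusted p = 0.655). Fgf12, an intracellular FGF, had 3.08 and 1.74 RPM in control and 5.81 and 2.66 RPM in knockout cells, with a log2 change of 0.76 (SE 0.57, limma adjusted p = 0.655). At Fgf8 and Fgf12 the groups overlapped. Within each group, replicate 1 was above replicate 2 at all 16 members tested.

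Fgf4, which had the largest H3K4me3 change, was above the H3K27me3 threshold in all 4 libraries. It had 11.4 and 6.32 RPM of H3K27me3 in control and 10.8 and 9.01 RPM in knockout cells, which overlap, and its log2 change of 0.22 (SE 0.56, limma adjusted p = 0.931) turned to -0.37 with median centring. Fgfr4 had 3.08 and 1.28 RPM in control and 3.31 and 2.85 RPM in knockout cells, with a log2 change of 0.63 (SE 0.56, limma adjusted p = 0.715). The Fgfr1 window had 2.67 and 0.824 RPM in control and 2.36 and 1.61 RPM in knockout cells, with a log2 change of 0.40 (limma adjusted p = 0.848) that turned to -0.19 with median centring. Spry2, Dusp6, Etv4 and the other Spred and Sprouty genes were not tested, since their values ran from 0 to 1.01 RPM.

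Classed again in the knockout libraries by the same thresholds, 10 members changed class. Fgf3, Fgf4, Fgf11 and Fgf17 went from bivalent to H3K27me3 alone, and Fgfr4 went from H3K4me3 alone to H3K27me3 alone. At Fgf11 and Fgfr4 only knockout replicate 1 fell below the H3K4me3 threshold, with ratios of 0.027 and 0.886. Knockout replicate 2 stayed well above it there, at 2.455 and 3.122. At Fgf3 only knockout replicate 2 fell below, at 1.277 against 1.628 in knockout replicate 1. Fgf12, Fgf13, Fgf16 and Fgf18 went from H3K4me3 alone to bivalent, and Fgf9 went from bivalent to H3K4me3 alone. The Fgf9 move does not show a fall of H3K27me3, whose log2 change there was 0.72 (limma adjusted p = 0.662). Its H3K27me3 ratios were 1.086 and 1.085 in control and 2.678 and 0.927 in knockout cells, so knockout replicate 2 alone set the move. The knockout thus had 8 bivalent members, 15 with H3K4me3 alone, 6 with H3K27me3 alone and 6 with neither, and no feedback gene changed class. These class changes have no test and, given the called changes above, only those of Fgf4 and Fgfr4 go with a call in H3K4me3, and none with a call in H3K27me3 without the replicate block.

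H3K9me3, the mark of constitutive heterochromatin, was below its input at every member, as it was at the median window of the table. The median log2 ratio was -0.75 over the members and -0.66 over all 25965 windows. The log2 ratio over the mean of its inputs ran from -1.02 to -0.03 over both libraries of the 35 members, with no member above 0 in both libraries, against 8.22% of all windows. The highest H3K9me3 value at a member was 0.197 RPM, under the pseudocount of 0.5 RPM that enters the ratio and limits its size. The 2 inputs of this kit differed by little more than sampling noise, at 1.02 chi-square units per degree of freedom, and were used as their mean.

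In RNA, Spry4, Dusp6 and Spry2 rose, which are 3 of the 6 feedback genes tested. They were 15.8% of the 19 members tested (mean log2 RPM of at least 0), against 3.01% of all 14100 genes called higher (limma, adjusted p under 0.05). No member was called lower, against 0.312% of all genes, and at an unadjusted p under 0.05, 1 was lower and 7 higher, against 3.6% and 16.5% of all genes. Median centring moved the calls over all genes from 44 lower and 425 higher to 114 lower and 266 higher. With limma voom the same 3 genes were called. Leaving out knockout replicate 1 gave 10 members higher and 1 lower, where 5257 of all genes were called higher and 1442 lower. Leaving out knockout replicate 2 gave 7 higher and 1 lower, where 2953 of all genes were called higher and 3095 lower. These 3 were among the calls each time. With the replicate number as a block, 5 members were called higher and 1 lower, against 1292 and 195 of all genes. The groups did not overlap at 12 members, of which 10 were higher, against 36.2% of all genes, and 2 lower, against 16.0%.

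Spry4 had 1.56 and 2.46 RPM of RNA in control and 5.11 and 7.44 RPM in knockout cells. Both knockout libraries were above both control libraries, and the mean was 3.13-fold higher (2.01 ± 0.634 against 6.28 ± 1.65 RPM, SD, n = 2). The log2 change was 1.66 (SE 0.27, limma adjusted p = 0.0302).

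Dusp6 had 7.90 and 10.9 RPM in control and 17.5 and 19.9 RPM in knockout cells. The groups did not overlap, and the mean was 1.99-fold higher (9.39 ± 2.11 against 18.7 ± 1.74 RPM, SD, n = 2). The log2 change was 1.01 (SE 0.17, limma adjusted p = 0.0317).

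Spry2 had 4.65 and 4.24 RPM in control and 8.50 and 8.39 RPM in knockout cells. The replicates lay close together and the groups were apart, with a mean 1.90-fold higher (4.45 ± 0.295 against 8.45 ± 0.0742 RPM, SD, n = 2). The log2 change was 0.93 (SE 0.13, limma adjusted p = 0.0249). The calls of Spry4, Dusp6 and Spry2 held with each library left out in turn, but all 3 were lost with quantile normalization, at log2 changes of 1.42, 0.87 and 0.72 (limma adjusted p = 0.0756, 0.0726 and 0.0677). Without a filter on low values Spry4 also missed the threshold (limma adjusted p = 0.0555). Fgf21 was then called, on 1 and 1 reads in control and 10 and 6 reads in knockout cells. The share of all genes called in that fit is not given here.

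The other feedback genes did not pass. Spry1 had a log2 change of -0.10, Spred1 of 0.02 and Spred2 of 0.08, and Spred3, at 0.286 to 1.05 RPM, was under the filter. Etv4, an ETS factor gene that FGF signalling switches on, had 10.9 and 13.1 RPM in control and 16.5 and 18.0 RPM in knockout cells, with no overlap. Its log2 change of 0.53 (SE 0.13) missed the threshold (limma adjusted p = 0.0836).

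**Figure D3:**
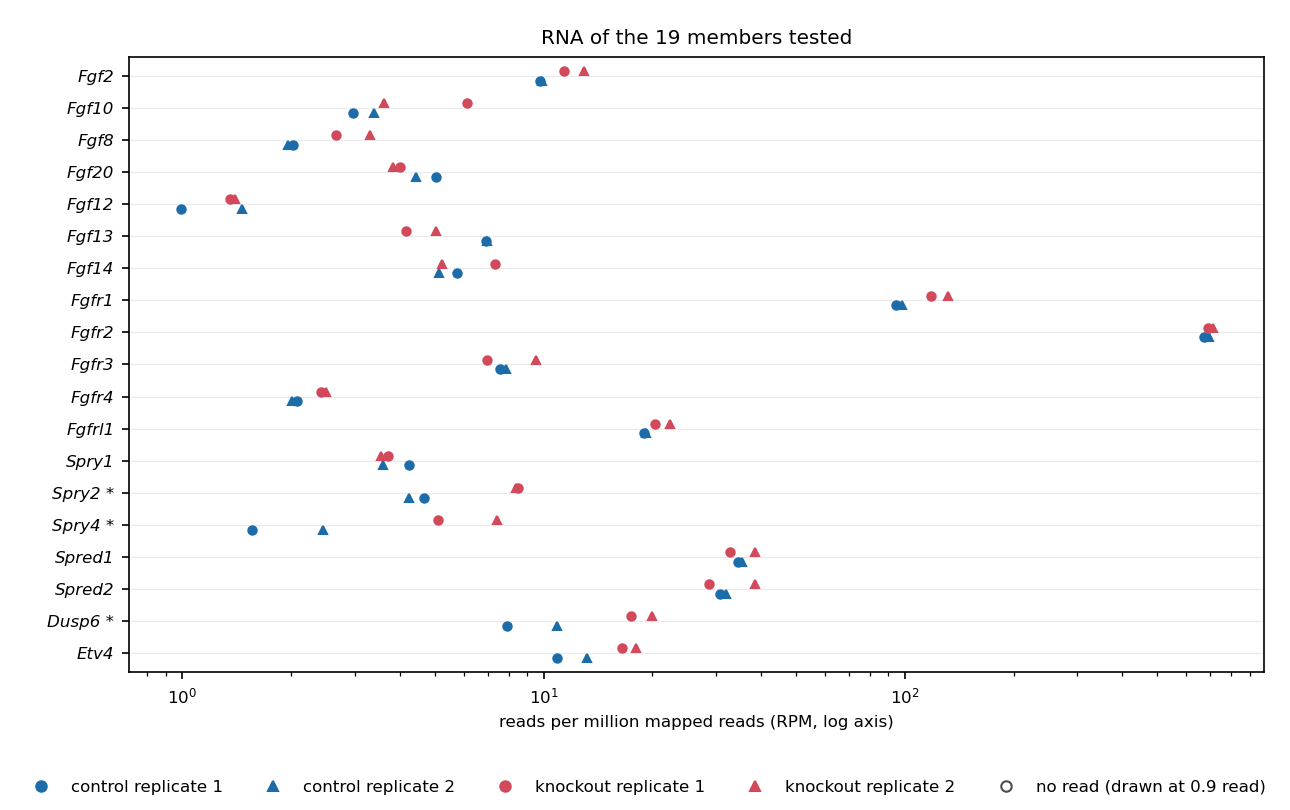
RNA in RPM on a log axis for the 19 members tested, with circles for replicate 1 and triangles for replicate 2, and an asterisk for those called higher. At Spry2, Spry4 and Dusp6 both knockout libraries lie to the right of both control libraries; RPM is not divided by gene length, so rows cannot be ranked against each other.

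The windows of the 3 risen genes carried H3K4me3 alone in both groups with H3K4me3 changes between -0.48 and -0.23. The Spry4 window lies 266 bases from the start of 9630014M24Rik, so its mark may belong to either gene. Of the 3 members called lower in H3K4me3, Fgfr4 alone had enough RNA to be tested. Fgf4 RNA had no read in either control library, which allows up to 0.0780 and 0.0676 RPM (3 counts, counting error only), and 1 and 0 reads in the knockout libraries. Fgf5 RNA was at 0.234 and 0.225 RPM in control and 0.328 and 0.425 RPM in knockout cells, under the filter. Fgfr4 RNA had 2.08 and 2.01 RPM in control and 2.43 and 2.50 RPM in knockout cells, with a log2 change of 0.27 (SE 0.18, limma adjusted p = 0.462) and both knockout values above both control values. In all, 16 members, 14 of them secreted ligands, were not tested in RNA, and their values ran from 0 to 1.1 RPM.

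Few ligands had RNA to test. Fgf8 had 2.03 and 1.96 RPM in control and 2.67 and 3.30 RPM in knockout cells, without overlap, and its log2 change of 0.57 (SE 0.19) did not pass (limma adjusted p = 0.162). The row of Fgf10, a ligand of mesenchyme, had 2.96 and 3.38 RPM in control and 6.12 and 3.62 RPM in knockout cells. Its log2 change of 0.57 (SE 0.25, limma adjusted p = 0.266) rested on knockout replicate 1, as it was 0.19 without that library. The Fgf2 row had 9.78 and 9.89 RPM in control and 11.4 and 13.0 RPM in knockout cells, with a log2 change of 0.30 (SE 0.12, limma adjusted p = 0.219). Fgf13, an intracellular FGF, had 6.92 and 6.96 RPM in control and 4.15 and 5.05 RPM in knockout cells. It was lower without overlap, but its log2 change of -0.60 (SE 0.15) was not called (limma adjusted p = 0.0835), and it was called with median centring, at -0.70 (limma adjusted p = 0.0481).

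Receptor RNA was not called changed at any of the 5 genes, by limma or limma voom. Fgfr1, which encodes a main receptor of FGF2, had 94.2 and 98.4 RPM in control and 118 and 132 RPM in knockout cells, without overlap. Its log2 change was 0.37 (SE 0.10, limma adjusted p = 0.0976). Fgfr3 had 7.57 and 7.84 RPM in control and 6.97 and 9.54 RPM in knockout cells, with a log2 change of 0.08 (limma adjusted p = 0.837) whose sign turned under both other scalings. The Fgfr2 row, which also holds the reads of 19 other genes, had 674 and 693 RPM in control and 692 and 711 RPM in knockout cells, with a log2 change of 0.04 (limma adjusted p = 0.863).

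The median RNA change of the 19 members was 0.19, against 0.06 over all genes tested, and 16 of the 19 changes were positive as deposited and 12 with median centring or quantile normalization. Of the feeder markers 3 of 21 tested were called higher, against 3.01% of all genes, and their median log2 change was 0.34. Gfra1, Ret and Nanos2, germ cell markers, were called higher as well, at 3 of 14, with a median of 0.29 over the 14. The part of either cell type in the FGF results was not tested. H3K4me3 was called lower at 5 of 20 feeder markers tested (Vim, Tagln, Lox, Fap and Fbln2) and at 0 of 13 germ cell markers. The share over all windows was 9.9%. The median log2 changes were -0.52 over the feeder markers and -0.17 over the germ cell markers.

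**Figure D4:**
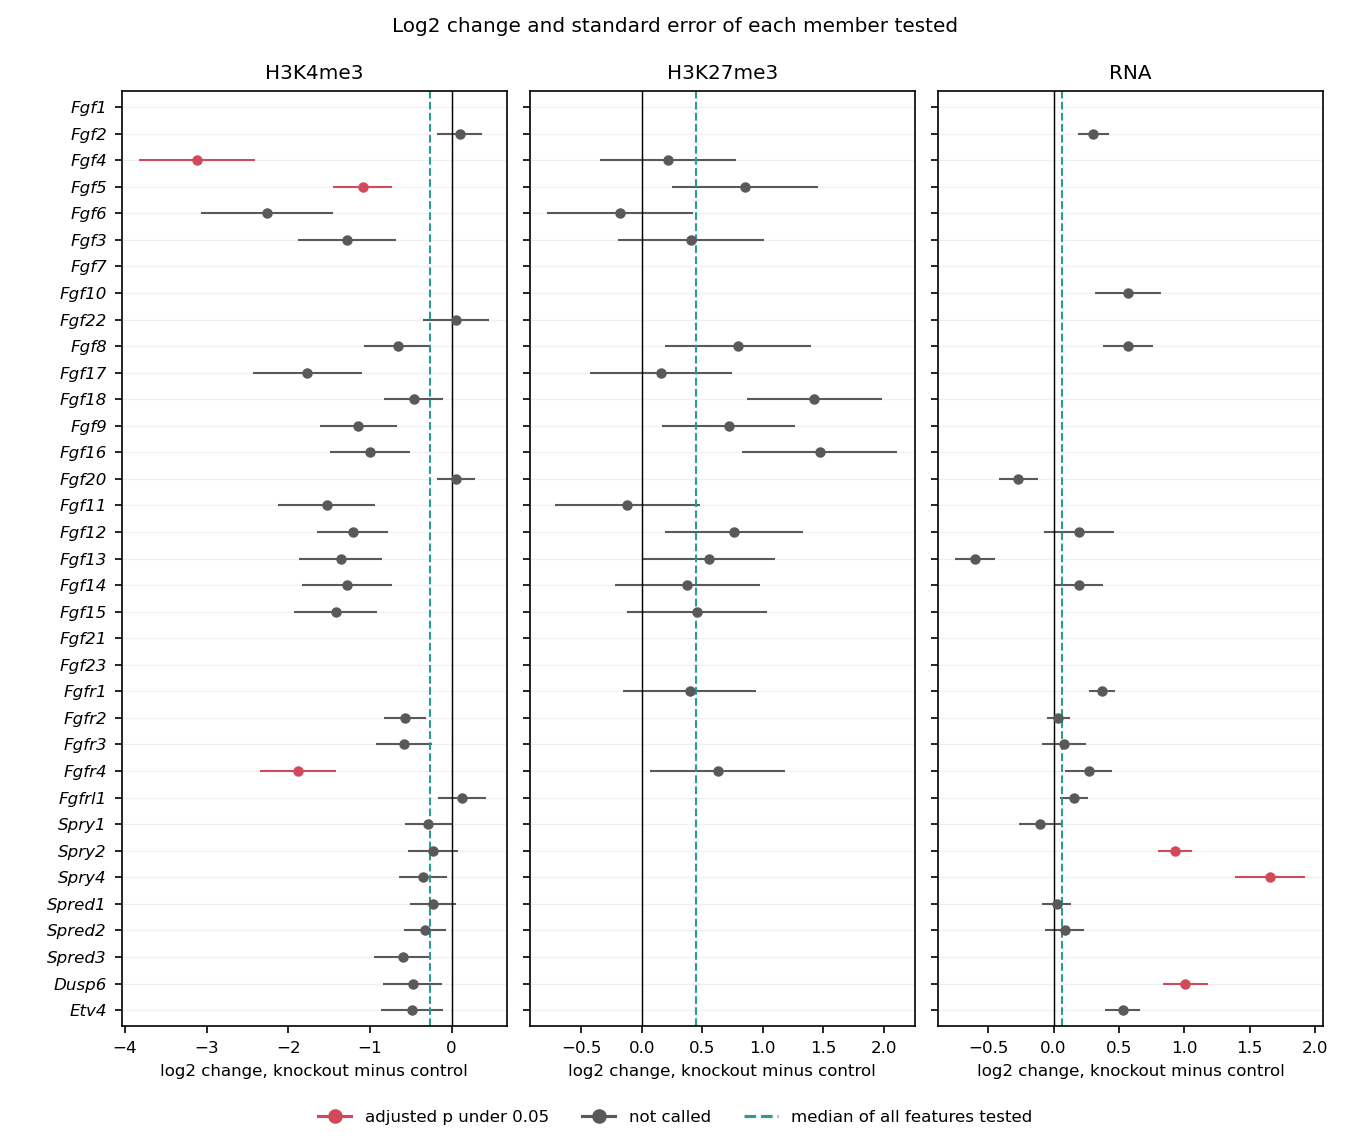
Log2 change, knockout minus control, with its standard error for each member tested in H3K4me3, H3K27me3 and RNA (2 libraries a group), in red where limma's adjusted p was under 0.05; the solid line is 0 and the dashed line the median of all features tested (-0.26, 0.45 and 0.06). The calls are Fgf4, Fgf5 and Fgfr4 in H3K4me3 and Spry2, Spry4 and Dusp6 in RNA.

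The wider pathway was followed with a list of 70 genes, of which 69 had a chromatin row and 68 an RNA row. In H3K4me3, limma called 3 of the 65 tested lower and none higher, 4.62% against 9.9% of all windows. All 3 are among the 18 co-receptors and heparan sulphate genes tested. Kl, which encodes the Klotho co-receptor of FGF23, had 11.0 and 11.2 RPM in control and 2.09 and 4.28 RPM in knockout cells (log2 change -1.89, limma adjusted p = 0.0124). Sulf1, which encodes a sulphatase that trims heparan sulphate, had 10.5 and 11.4 RPM in control and 1.04 and 5.61 RPM in knockout cells (log2 change -2.18, limma adjusted p = 0.0063). Fgfbp3, which encodes an FGF-binding protein, had 8.98 and 12.8 RPM in control and 1.57 and 7.24 RPM in knockout cells (log2 change -1.67, limma adjusted p = 0.0233).

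Without knockout replicate 1, Kl was still called at -1.37 (limma adjusted p = 0.0194), while Sulf1 at -0.97 and Fgfbp3 at -0.57 were not (limma adjusted p = 0.089 and 0.339). With control replicate 1 or 2 left out, no window of the table was called lower, and the log2 changes were -1.90 and -1.88 at Kl, -2.24 and -2.12 at Sulf1, and -1.93 and -1.41 at Fgfbp3. With quantile normalization Kl, Sulf1 and Fgfbp3 all lost their calls, at -0.85, -1.13 and -0.67 (limma adjusted p = 0.0684, 0.0901 and 0.248). Median centring kept only the call of Kl (limma adjusted p = 0.0463). Over input Sulf1 and Fgfbp3 kept theirs and Kl did not (limma adjusted p = 0.0573). The median change of the 65 was -0.24, close to the -0.26 over all windows. No adaptor gene and no gene of the RAS, MAP kinase and PI3 kinase list was called, of 13 and 16 tested. In H3K27me3, 0 of 10 pathway genes were called by limma, and the largest changes were at Ccnd1 (1.74), Fgfbp3 (1.64) and Sulf2 (0.98), with limma adjusted p-values of 0.227, 0.138 and 0.459.

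In RNA, 2 of 59 pathway genes were called higher (3.39%, against 3.01% of all genes) and none lower. Fos, an immediate early gene downstream of ERK, had 26.1 and 23.2 RPM in control and 44.3 and 43.3 RPM in knockout cells (log2 change 0.83, limma adjusted p = 0.0206). Sdc4, which encodes a heparan sulphate proteoglycan of the cell surface, had 789 and 784 RPM in control and 1089 and 1090 RPM in knockout cells (log2 change 0.47, limma adjusted p = 0.0453). In both genes the groups did not overlap. Fos lost its call with quantile normalization (limma adjusted p = 0.0522). Sdc4 lost its call with median centring and without a filter on low values (limma adjusted p = 0.121 and 0.266). Fos lost its call without control replicate 2, at a log2 change of 0.75 (limma adjusted p = 0.0608). Sdc4 lost its call without control replicate 1 or 2, at log2 changes of 0.47 and 0.46 (limma adjusted p = 0.607 and 0.568).

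Etv5, the close relative of Etv4, had 10.3 and 12.2 RPM in control and 15.3 and 20.0 RPM in knockout cells, without overlap, but its log2 change of 0.65 (SE 0.16) was not called (limma adjusted p = 0.0805). Fosl1, a Fos relative, had 0.910 and 1.37 RPM in control and 2.03 and 1.62 RPM in knockout cells, with a log2 change of 0.70 (limma adjusted p = 0.219). None of the 12 adaptors, 17 genes of RAS, MAP kinase and PI3 kinase signalling and 7 other feedback genes tested in RNA was called, and their median log2 changes were -0.05, -0.01 and 0.17.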

How the data were processed

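H3K4me3, H3K27me3, H3K9me3 and input DNA were measured in 16 libraries and RNA in 4, all grouped by the genotype in the labels. The authors deposited log2 RPM values (the reads-per-million scaling to mapped reads) for each gene's window and for each gene's RNA, in mm10 coordinates, without division by input or by length. The submitters' processing notes name TopHat2 2.0.14, Bowtie 1.1.1, Trim Galore 0.4.0 and CASAVA 1.8; the roles of these tools, the window size and the strand setting of the RNA counts are not given in the sources used here. Genes that overlap another gene on either strand can therefore share its reads. In every library, 2 to the power of the deposited values gave whole multiples of 1 read (100% of values within 0.1 of a read), and windows without a read stood at 0.9 of a read. Intervals and limits from counts cover counting error only.

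Knockout was compared with control (2 libraries each) in limma 3.58.1 (R 4.3.3), whose prior variance followed the mean, using the deposited log2 values of the whole table. For the histone marks the SE of a window thus followed its mean signal and hardly its own replicates. In H3K4me3 it was 0.595 at both Fgf3 and Fgf11. Their knockout values were 2.35 and 2.41 RPM at Fgf3 and 0.783 and 6.09 RPM at Fgf11. Two-sided p-values were adjusted by the Benjamini-Hochberg method across every feature tested, and features were called at an adjusted p under 0.05. Windows needed a mean of at least 1 RPM and RNA a mean log2 RPM of at least 0; input DNA used the same windows as H3K4me3. The test was also run on simulated reads that had the same spread in every library. Knockout RNA replicates differed more than the control pair did, so the simulation does not cover that difference. Promoter classes used a pseudocount of 0.5 RPM. Alternatives were other scalings, filters and pseudocounts, limma voom on the recovered reads, a replicate block, division by input, and leaving out each library. Leaving out windows far from a RefSeq start, and RNA rows that enclose another gene, was chosen after seeing the data.

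The members, the pathway and marker lists and the tests were chosen with earlier results of these data known. Named members were those called in any comparison, the 5 largest changes in each, and Fgf2, Fgf4, Fgf8, Fgfr1, Fgfr2, Fgfr3, Spry4, Dusp6 and Etv4; of the pathway genes, those called and the 3 largest changes in each comparison. RefSeq starts were found for all 35 members and promoter sequences for 26, of which 20 lay within 1 kb of the start in the tables. Scripts used pandas 2.3.3, numpy 2.4.6 and matplotlib 3.10.9.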

Additional observations from a re-analysis of the deposited data

How the results depend on the processing

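With 2 lines a group, the counts of called members moved with the library left out and with the test. In H3K4me3, 3 calls became 6 on log2(RPM + 0.5), 10 with limma voom, 14 with the replicate block, and 0 to 22 with a library left out, where 1719, 2587, 4037 and 0 to 6889 of all 15624 windows were called lower (1546 as deposited). In H3K27me3, 0 became 2 lower with median centring (Fgf6 and Fgf11) and 5 higher with the block (against 1206 of all 4807 windows). With a library left out, H3K27me3 changes ran from 0.64 to 2.31 at Fgf16 and from 0.054 to 2.80 at Fgf18. In RNA, 3 became 0 with quantile normalization, 6 with the block, and 3 to 11 with a library left out. The sources used here do not say whether a replicate number marks the same cell line in both groups, and replicate differences correlated between genotypes at 0.149 in H3K4me3, 0.0617 in H3K27me3 and 0.0909 in RNA. Members with H3K27me3 alone numbered 2 at thresholds of 2 and 1.5, and 0 to 3 with a control replicate left out; bivalent members then numbered 10 to 14. Leaving out windows far from a RefSeq start, or RNA rows enclosing another gene, kept 3 calls in H3K4me3, 0 in H3K27me3 and 3 in RNA. Of 386 recomputed log2 changes of named members, 317 kept direction and side of the threshold, 17 lost a call, 38 gained one and 14 changed sign. Signs changed in H3K4me3 at Spry2 (0.063 with median centring, 0.0073 with quantile normalization), Fgf8 (0.015) and Etv4 (0.046), both with quantile normalization. They changed in H3K27me3 at Fgf4 (-0.37) and Fgfr1 (-0.19) with median centring and at Fgfr1 (-0.13) with quantile normalization. In RNA they changed at Fgfr2 (-0.060) and Fgfr3 (-0.015) with median centring and at Fgfr3 (-0.10) with quantile normalization. With a library left out, H3K27me3 changes ran from -0.21 to 0.64 at Fgf4, from -0.45 to 1.24 at Fgfr1 and from -0.0046 to 1.26 at Fgfr4, and RNA changes from -0.14 to 0.31 at Fgfr3. The causes were not tested. The depth of the H3K4me3 knockout replicate 1 library limits low windows, and RNA of most secreted ligands was too low to test.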
